A study of Mus musculus with 23 samples.

Results

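The genes described here are 7 transcripts tied to the resting state and the tissue homing of lymphocytes: the Kruppel-like factors Klf2, Klf3 and Klf13, the forkhead factor Foxp1, the anti-proliferative genes Btg1 and Btg2, and the integrin subunit Itgb7. They were chosen by symbol. All 7 were among the 11548 genes listed for naive cells and the 10574 listed for cultured cells, and all 7 passed the filter on low values in both tables, which kept genes at 1 RPKM or more in at least 2 libraries (10137 naive and 9986 cultured genes). RPKM are read counts scaled to gene length and to the library's total.

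The libraries came from mouse spleen B cells sorted without the myeloid markers CD11b and F4/80 and without Thy1.2. KO cells were labelled IRF8 KO, carried guide 1 or guide 2 against Irf8 and were sorted for Thy1.1, and WT cells carried no guide and lacked Thy1.1. Naive B cells (B220+, no treatment) gave 3 WT and 3 KO libraries in each of 2 arms, 1 arm per guide. The cultured libraries, whose KO cells carried guide 1, followed 72 hours of culture with IL-2 at 20 ng/ml, IL-5 at 5 ng/ml and LPS at a labelled 20 mg/ml. They were activated B cells (B220+ GL7+ CD138-; 3 WT and 3 KO libraries, numbered m1 to m3) and CD138+ plasmablasts (2 WT, m1 and m2, and 3 KO). Without a control guide in the design, loss of Irf8 cannot be told apart from carrying a guide or from the Thy1.1 sort. The labels give neither the age of the mice nor how guides were delivered, and they do not say that libraries came from separate animals, so p-values measure the spread between these libraries, which may be technical.

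The targeted transcript Irf8 averaged 59.7 ± 12.6 RPKM in naive KO and 90.6 ± 6.57 in naive WT libraries (SD, n = 6 each; limma adjusted p = 0.00412), and 21.0 ± 3.37 in plasmablast KO (SD, n = 3) and 21.1 ± 4.99 in plasmablast WT libraries (SD, n = 2). In all, 4 libraries stood apart. Of the activated m3 pair, the library labelled WT had 25.7 RPKM of Thy1 and 60.0 of Irf8 and the library labelled KO 0.093 and 92.4, opposite to m1 and m2. Plasmablast KO m3 rested on an estimated 51000 reads, against at least 4300000 in every other library, and in it Klf2 corresponds to about 1 read, Klf3 to 0 and Btg1 and Itgb7 to 3 each. Naive KO guide 1 A listed 1405 genes at 0, against at most 291 in the other naive libraries. The B cell receptor component Cd79a was at 1125 to 1491 RPKM in naive libraries and 809.6 to 1690 in cultured libraries other than plasmablast KO m3, and the B cell surface gene Ms4a1 was at 205 to 292 and 40.8 to 106 RPKM. None of the neutrophil and platelet markers checked was listed in either table, and none of the 9 T cell markers checked was listed for cultured cells.

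KLF2 is a zinc finger transcription factor that keeps resting lymphocytes in circulation. In lymphocytes it supports the genes of the egress receptor S1PR1 and of integrin beta 7, and its own transcript is lost when antigen receptors or other growth signals act. KLF3 is a repressor that binds the same CACCC-type sequences, KLF13 is a broadly expressed member of the family, and FOXP1 is a forkhead repressor needed for B cell development and for the resting state of naive T cells. BTG1 and BTG2 bind the CCR4-NOT deadenylase and promote the shortening of mRNA tails, and both restrain cell division; BTG2 is also a p53 target. ITGB7 pairs with ITGA4 or ITGAE as a receptor for mucosal tissues.

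All 7 genes had a promoter window in RefSeq on GRCm38.p6, the assembly called mm10, with 9 windows in all. The 250 bases before the annotated start are printed 5′ to 3′ on the gene's strand for Klf2 and Btg1, the members called between activated cells and plasmablasts with all libraries, and for Btg2, the relative of Btg1 that did not follow it. Capitals mark the motif named after each gene. They are the MEF2 box in Klf2, GTAAACA, a FOXO site, found in Btg1 on the opposite strand, and TGACGTCA, the cyclic AMP response element, in Btg2.
Klf2 (chr8:72318812-72319061, plus strand, MEF2 box 118 bases before the start): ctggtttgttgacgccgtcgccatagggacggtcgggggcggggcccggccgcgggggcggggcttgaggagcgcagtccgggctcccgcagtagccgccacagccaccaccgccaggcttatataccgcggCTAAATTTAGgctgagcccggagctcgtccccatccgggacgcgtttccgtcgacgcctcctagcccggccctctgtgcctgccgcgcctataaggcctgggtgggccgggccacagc
Btg1 (chr10:96616751-96617000, plus strand, FOXO site 204 bases before the start): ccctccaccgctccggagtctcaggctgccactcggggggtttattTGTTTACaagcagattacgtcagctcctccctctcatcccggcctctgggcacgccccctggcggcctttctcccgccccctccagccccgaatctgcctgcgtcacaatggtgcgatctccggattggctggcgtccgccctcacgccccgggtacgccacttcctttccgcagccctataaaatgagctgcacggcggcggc
Btg2 (chr1:134079156-134079405, minus strand, cyclic AMP response element 166 bases before the start): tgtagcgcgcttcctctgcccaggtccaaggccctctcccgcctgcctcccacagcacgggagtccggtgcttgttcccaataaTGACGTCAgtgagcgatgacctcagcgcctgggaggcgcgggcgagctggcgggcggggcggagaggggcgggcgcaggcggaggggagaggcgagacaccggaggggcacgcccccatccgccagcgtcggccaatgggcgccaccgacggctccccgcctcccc
Searched on both strands, the MEF2 box pattern occurs in 3.2% of 32851 promoter windows of the same length. The FOXO site occurs in 3.17% and the cyclic AMP response element in 1.55%. Each of these motifs occurs in 1 of the 7 genes. The MEF2 pattern allowed any base at its middle positions, so its 3.2% also counts sequences that differ there from the Klf2 site. The share of windows with the Klf2 sequence itself was not counted. The GC box GGGCGG, which Sp and KLF proteins bind, can overlap other GC-rich motifs. It is in windows of 6 of the 7 genes and in 32.7% of all windows. The CACCC box CCACCC is in 5 of the 7 genes and in 28.1% of all windows. Counts of the 7 are per gene over 9 windows, 3 of them of Foxp1, and the shares are per window. The tandem IRF half-site motif, the ETS-IRF composite motif and the AP-1 site TGANTCA are in none of the 9 windows, against 2.98%, 2.3% and 6.75% of all windows. A match describes letters and not a bound site.

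Of the 7 transcripts, 3 were several-fold lower in activated than in naive cells and lower again in plasmablasts (Klf2, Btg1 and Itgb7). Klf3 was lower in both cultured populations alike, Foxp1 was moderately lower in each, and Klf13 and Btg2 showed no such step down. The naive and cultured tables were made separately, so levels across them are set side by side without a test. Over 10178 genes in both tables the median log2 difference between naive and activated cells was 0.03. In all these bulk libraries, fewer cells with a transcript and less transcript per cell cannot be told apart.

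**Figure D1:**
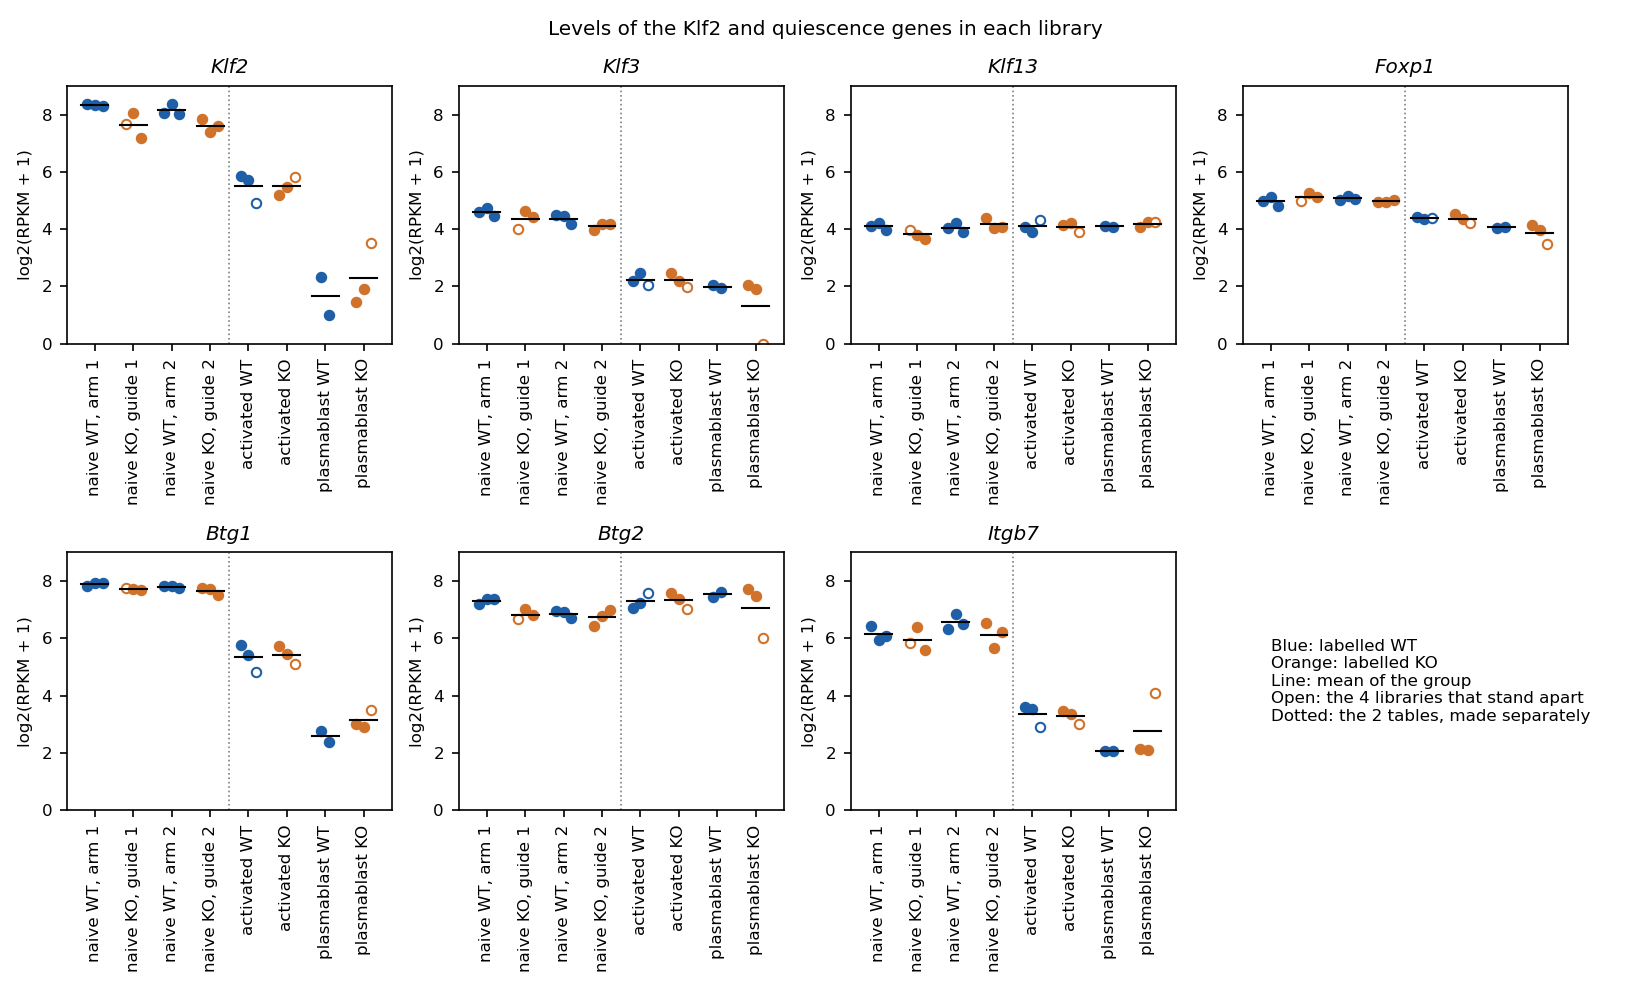
Level of each gene in every library, as log2(RPKM + 1), with naive groups to the left and cultured groups to the right of the dotted line. Points are libraries, blue for WT and orange for KO labels, lines are group means, and open points are the 4 libraries that stood apart. With plasmablast KO m3 set aside, Klf2, Btg1, Itgb7 and, by smaller steps, Foxp1 are highest in naive cells and lowest in plasmablasts. Klf13 is about level, and Btg2 shows no step down apart from plasmablast KO m3.

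Klf2 (Entrez 16598, chromosome 8, 72319062 to 72321654) was among the most abundant transcripts of naive B cells. It averaged 304 ± 32.5 RPKM in naive WT cells (SD, n = 6), where 0.26% of listed genes had a higher mean. The 6 activated libraries averaged 45.4 ± 11.3 RPKM (SD, n = 6), 5.56 times below the mean of all 12 naive libraries. Plasmablasts without KO m3 averaged 2.39 ± 1.33 RPKM (SD, n = 4), 19.0 times below activated cells. The 3 ranges, 146 to 330, 29.0 to 56.6 and 1.00 to 4.07 RPKM, did not touch. The lowest value, in plasmablast WT m2, stands for about 8 reads. Of the genes in both tables, 0.796% had a higher naive to activated log2 difference than Klf2.

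Klf3 (Entrez 16599, chromosome 5, 64803521 to 64832901) was lower in both cultured populations. It averaged 21.5 ± 2.94 RPKM in naive WT cells (SD, n = 6), 3.72 ± 0.668 in activated cells (SD, n = 6) and 2.99 ± 0.200 in plasmablasts without KO m3 (SD, n = 4). Activated libraries held 2.91 to 4.53 RPKM and plasmablasts 2.79 to 3.19, so the cultured populations overlapped. Naive libraries, at 14.5 to 25.9 RPKM, all lay above both, and 1.22% of shared genes had a higher naive to activated log2 difference.

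Klf13 (Entrez 50794, chromosome 7, 63886351 to 63938915) had like levels throughout. It averaged 15.9 ± 1.45 RPKM in naive WT (SD, n = 6), 16.1 ± 1.90 in activated (SD, n = 6) and 16.6 ± 0.937 in plasmablast libraries without KO m3 (SD, n = 4), and the ranges overlapped. Of the genes in both tables, 54.6% had a higher naive to activated log2 difference.

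Foxp1 (Entrez 108655, chromosome 6, 98925342 to 99522746) averaged 31.7 ± 2.72 RPKM in naive WT (SD, n = 6), 19.9 ± 1.55 in activated (SD, n = 6) and 15.8 ± 0.837 in plasmablast libraries without KO m3 (SD, n = 4). Its naive mean was 1.6 times the activated mean, and the naive (26.9 to 37.7 RPKM), activated (17.5 to 22.2 RPKM) and plasmablast (14.8 to 16.8 RPKM) ranges did not overlap. Of the genes in both tables, 18.0% had a higher naive to activated log2 difference. With all libraries, every plasmablast library lay below every activated library for 36.8% of tested genes in WT and 22.8% in KO cells. These shares are within a genotype and keep plasmablast KO m3. No share of all genes was taken for ranges over both genotypes, here or for Klf2, Btg1 and Itgb7.

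The BTG genes parted. Btg1 (Entrez 12226, chromosome 10, 96617001 to 96622813) averaged 230 ± 10.5 RPKM in naive WT cells (SD, n = 6), 41.8 ± 10.4 in activated cells (SD, n = 6) and 5.89 ± 1.21 in plasmablasts without KO m3 (SD, n = 4). The first step was 5.22-fold from all naive libraries and the second 7.1-fold, without overlap. For the first step 0.914% of shared genes had a higher log2 difference. Btg2 (Entrez 12227, chromosome 1, 134074865 to 134079155) averaged 137 ± 26.0, 160 ± 27.1 and 190 ± 16.0 RPKM in the same libraries, with overlap between neighbouring populations. The order of the BTG genes thus reversed: Btg1 was the higher in every naive library and Btg2 in every cultured library, on a scale per gene length.

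Itgb7 (Entrez 16421, chromosome 15, 102215994 to 102233405) averaged 82.6 ± 18.6 RPKM in naive WT (SD, n = 6), 9.11 ± 1.89 in activated (SD, n = 6) and 3.28 ± 0.101 in plasmablast libraries without KO m3 (SD, n = 4). Its naive to activated ratio of 8.21 was the highest of the 7 genes, and 0.354% of shared genes had a higher log2 difference. The ranges of 47.9 to 114, 6.50 to 11.2 and 3.18 to 3.40 RPKM did not overlap. The 15.9 RPKM in plasmablast KO m3 stands for about 3 reads.

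Proliferation and handling genes also differed in level between these states. The 16 cycling genes summed to 102 to 182 RPKM in naive libraries and 676 to 882 in activated ones. Immediate early genes, which cell handling can raise, summed to 1026 to 1523 RPKM in naive and 520 to 603 in activated libraries. Their part in the levels of the 7 genes was not tested.

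Naive KO and WT cells were then compared over both guides to ask which of the 7 genes differed with the Irf8 guides before any stimulation. Of the 7, Klf2 fell and the other 6 were not called (limma, adjusted p under 0.05), where 1.88% of all tested genes were called in either direction and 0.858% were called lower. In WT cells of the guide 1 arm Klf2 was at 327, 324 and 317 RPKM in libraries A, B and C, and in those of the guide 2 arm at 268, 330 and 257. KO cells of guide 1 held 201, 266 and 146 RPKM, and KO cells of guide 2 held 230, 168 and 192. Within each arm every KO library lay below every WT library, and across arms KO guide 1 B reached above WT C of the guide 2 arm. The KO mean was 34.0% below the WT mean, and the log2 difference was -0.62 (SE 0.13, 95% interval -0.90 to -0.33, adjusted p = 0.0341).

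The size of the Klf2 difference was stable and its call was not. It ranged from -0.73 to -0.51 over 18 alternatives, and its adjusted p from 0.00178 to 0.108. The call was lost without any 1 of 9 libraries, KO guide 2 A, B or C, WT A, B or C of the guide 1 arm, or WT A, B or C of the guide 2 arm, with adjusted p from 0.0549 to 0.108. The call was also lost in a limma fit with a block for libraries of the same arm and letter (adjusted p = 0.0662). It held without naive KO guide 1 A, the library with many genes at 0, at a log2 difference of -0.62 (adjusted p = 0.0199). It also held without that library and WT A of the guide 1 arm, which held 4.93 RPKM of Thy1, at -0.62 (adjusted p = 0.0414).

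**Figure D2:**
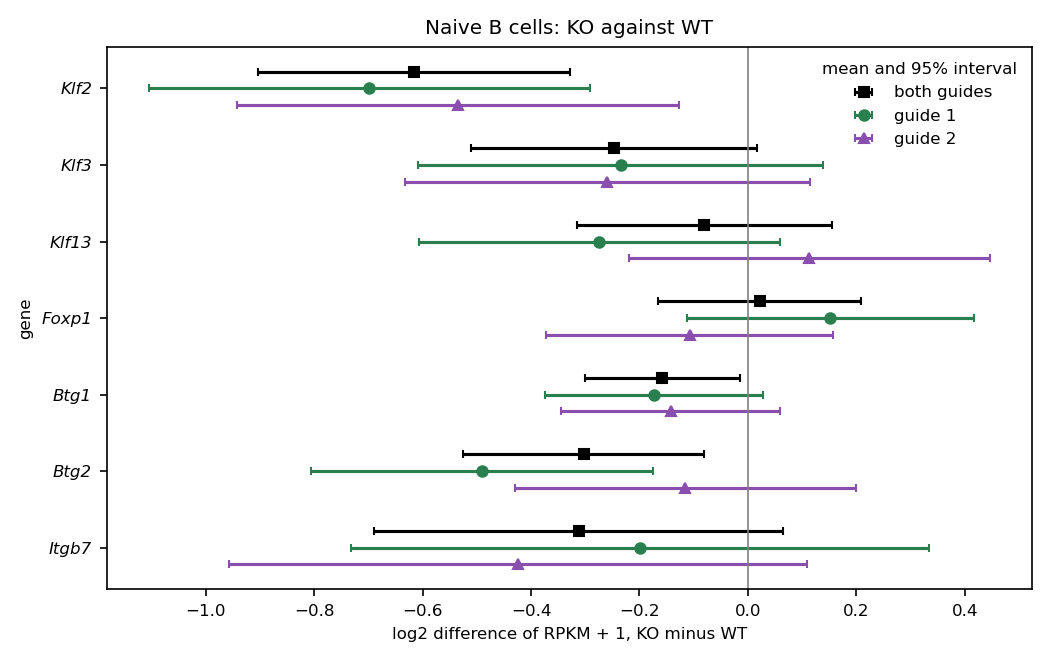
Log2 difference of RPKM + 1, KO minus WT, in naive B cells for each gene over both guides and for each guide, with 95% intervals. The interval of Klf2 lies below 0 in all 3 comparisons, that of Btg2 over both guides and with guide 1, and that of Btg1 over both guides. The differences of the genes other than Klf2 lie between -0.49 and 0.15.

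Klf3 and Klf13 did not pass the test in naive cells. Klf3 was at 22.978, 25.9 and 20.8 RPKM in WT and 15.2, 24.0 and 20.3 in KO with guide 1, and at 21.5, 20.8 and 17.0 in WT and 14.5, 17.1 and 17.4 in KO with guide 2. Its log2 difference was -0.25 (SE 0.12, 95% interval -0.51 to 0.02, adjusted p = 0.422). Klf13 lay at 14.1 to 17.5 RPKM in WT and 11.8 to 20.2 in KO libraries, with a difference of -0.08 (95% interval -0.32 to 0.16, adjusted p = 0.801). For both genes the groups overlapped.

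Foxp1 differed least. WT libraries held 26.9 to 34.4 RPKM and KO libraries 29.6 to 37.7, a log2 difference of 0.02 (SE 0.09, 95% interval -0.16 to 0.21, adjusted p = 0.943). The interval allows a difference of up to 0.21 above WT on the log2 scale.

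Both BTG genes were lower in KO cells by an unadjusted p, and neither passed the adjusted threshold. Btg2 was at 147, 164 and 167 RPKM in WT and 101, 130 and 111 in KO with guide 1, and at 122, 119 and 104 in WT and 86.0, 110 and 126 in KO with guide 2. Guide 1 libraries did not overlap and guide 2 libraries did. The difference over both guides was -0.30 (SE 0.10, 95% interval -0.53 to -0.08, unadjusted p = 0.0116, adjusted p = 0.209 by limma). Btg1 was at 216 to 244 RPKM in WT and 182 to 218 in KO libraries, a narrow range for both groups. Its difference was -0.16 (SE 0.07, 95% interval -0.30 to -0.02, unadjusted p = 0.0328, adjusted p = 0.327 by limma).

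Itgb7 varied widely between naive libraries of 1 group. It was at 85.3, 60.4 and 67.3 RPKM in WT and 56.3, 84.3 and 47.9 in KO with guide 1, and at 80.3, 114 and 88.7 in WT and 91.6, 49.1 and 73.5 in KO with guide 2. The groups overlapped in both arms. The difference was -0.31 (SE 0.17, 95% interval -0.69 to 0.07, adjusted p = 0.486).

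Without naive KO guide 1 A none of these 6 genes was called either, at log2 differences of -0.16 for Klf3, -0.12 for Klf13, 0.06 for Foxp1, -0.17 for Btg1, -0.26 for Btg2 and -0.28 for Itgb7. Over the 7 genes with all libraries, 6 differences were negative and the median was -0.25, beside -0.02 for all tested genes. With 6 libraries per group, the WT and KO values of all 7 genes overlapped, and 1.88% of tested genes had no overlap.

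Each guide was also set against its own WT arm, to see whether guides of different sequence gave like differences. With guide 1 Klf2 differed by -0.70 (SE 0.19, 95% interval -1.11 to -0.29, adjusted p = 0.103) and with guide 2 by -0.53 (SE 0.19, 95% interval -0.94 to -0.13, adjusted p = 0.899). None of the 7 genes was called with either guide, where 1.11% of genes were called with guide 1 and 0.0296% with guide 2. By unadjusted p under 0.05, limma had 2 of the 7 with guide 1 and 1 with guide 2. Each KO library was lower than each WT library for Klf2, Btg1 and Btg2 with guide 1, as for 10.0% of tested genes, and for Klf2, Foxp1 and Btg1 with guide 2, as for 6.44%.

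The difference between the guides was tested directly. None of the 7 genes was called, nor was any tested gene (0.0%; 479 genes and 0 of the 7 at an unadjusted p under 0.05 by limma). For Klf2 the guide 2 difference minus the guide 1 difference was 0.16 (95% interval -0.41 to 0.74), for Klf13 0.39 (-0.08 to 0.86) and for Btg2 0.37 (-0.07 to 0.82). These intervals are wide against the differences themselves.

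A comparison of the WT cells of both arms gave the difference between arms where no guide was present. Of the 7 genes none was called (0.0493% of tested genes; 1 of the 7 at an unadjusted p under 0.05 by limma). Btg2 was lower in all 3 WT libraries of the guide 2 arm than in those of the guide 1 arm, as for 8.18% of tested genes. The difference was -0.47 (SE 0.14, unadjusted p = 0.00708, adjusted p = 0.999 by limma), as large as the guide 1 difference of Btg2 between KO and WT. Itgb7 differed between the WT arms by 0.40 (adjusted p = 0.999), more than between KO and WT over both guides, with overlap. In the same comparison the immediate early list had a median of -0.19 and 13 of 17 negative differences. Its part in the Btg2 values was not tested.

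Few relatives and pathway partners of the 7 genes were called in naive KO cells. Of 13 other tested Kruppel-like and Sp factors none was called, with a median of -0.18. Klf6 averaged 46.4 ± 10.4 RPKM in KO and 43.0 ± 3.29 in WT libraries (SD, n = 6 each), a log2 difference of 0.08. Of 16 BTG and TOB relatives and CCR4-NOT subunits none was called (median -0.03), and neither of the 2 tested FOXP and FOXO relatives was, with Foxo1 at 46.7 ± 6.56 and 54.4 ± 4.29 RPKM (log2 difference -0.22, adjusted p = 0.393).

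Among 11 tested homing receptors and integrins 1 fell, Icam2, an adhesion ligand for leukocyte integrins. It averaged 48.5 ± 5.80 RPKM in WT and 31.7 ± 7.14 in KO libraries (SD, n = 6 each). Its log2 difference was -0.62 (adjusted p = 0.0219), and the call was lost in 7 of 18 alternatives (adjusted p from 0.00154 to 0.0708). S1pr1, a textbook target of KLF2, did not pass the test. It averaged 223 ± 40.4 RPKM in KO and 173 ± 20.8 in WT libraries (SD, n = 6 each), a log2 difference of 0.35 (adjusted p = 0.15). S1pr1 and Klf6 were picked for their known roles after their values were seen.

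Of 21 tested genes of quiescence and cell cycle restraint 1 fell, Bach2, a repressor that holds back the plasma cell programme (log2 difference -1.26, adjusted p = 0.00561, kept in 18 of 18 alternatives). Of 16 cycling genes 1 fell, the replication helicase gene Mcm5 (-0.75, adjusted p = 0.0188, lost in 4 of 18 alternatives). Of 17 immediate early genes 1 fell, Egr1 (-1.02, adjusted p = 0.0314, lost in 12 of 18 alternatives), and the list's median was -0.17. Macrophage and monocyte genes, 6 of 8 listed, summed to 0.922 to 32.6 RPKM in KO and 2.64 to 11.3 in WT libraries. T cell genes, 2 of 9 listed, summed to 0.042 to 9.40 RPKM in KO and 0.055 to 1.32 in WT. Of the natural killer cell list, 5 of 7 listed, the sums were 2.30 to 5.84 RPKM in KO and 0.755 to 14.1 in WT libraries, and 1 of 5 tested genes rose, the perforin gene Prf1, at 3.97 ± 1.18 RPKM in KO and 1.11 ± 0.696 in WT (SD, n = 6 each; log2 difference 1.26, adjusted p = 0.00775, kept in 18 of 18 alternatives). Of the plasma cell list, 5 of 6 listed, the sums were 59.8 to 93.6 and 53.5 to 140 RPKM, and 1 of 5 tested genes fell, Sdc1, which encodes CD138, at 0.399 ± 0.465 and 2.85 ± 0.845 RPKM (-1.49, adjusted p = 0.00313, kept in 18 of 18). The part of other cells and of cell handling in the Klf2 difference was not tested.

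The tested genes whose naive pattern was most like that of Klf2, by Pearson's r of log2(RPKM + 1) over the 12 naive libraries, were Wars (0.929), Vim (0.924), Treml2 (0.92), Tent5a (0.894) and Herpud1 (0.885). The 12 libraries share the KO and WT groups and the arms, so r describes these libraries only. Vim, the gene of the intermediate filament vimentin, was at 36.8 ± 4.42 and 49.6 ± 6.43 RPKM in WT of the guide 2 and guide 1 arms and at 29.4 ± 5.44 and 29.1 ± 5.84 in KO (SD, n = 3 each). Of the 7 genes, Btg1 followed Klf2 most closely (0.697), then Itgb7 (0.655), Btg2 (0.582), Klf3 (0.549) and Klf13 (0.421), and Foxp1 least (0.0387). By r among the tested genes, Btg1 ranked 164, Itgb7 255, Btg2 475, Klf3 604, Klf13 1265 and Foxp1 4910.

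Activated KO and WT cells were compared to ask whether the 7 genes differed after culture. With labels as given none did. Klf2 was at 35.4, 43.8 and 55.7 RPKM in KO m1, m2 and m3 and at 56.6, 51.8 and 29.0 in WT m1, m2 and m3. The library labelled KO held less Klf2 than its WT counterpart at m1 and m2 and more at m3. The log2 difference was 0.01 with all libraries (SE 0.55, 95% interval -1.22 to 1.24), and -0.45 without both activated m3 libraries and plasmablast KO m3 (SE 0.31, 95% interval -1.12 to 0.22, adjusted p = 0.645).

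Btg2 and Klf13 ran the other way in the same libraries. Btg2 was at 192, 165 and 129 RPKM in KO m1, m2 and m3 and at 134, 149 and 189 in WT. Klf13 was at 16.7, 17.4 and 14.0 RPKM in KO and 15.8, 14.1 and 18.8 in WT. For Klf2, Klf13 and Btg2 alike, the m3 library labelled KO sat with the WT libraries of m1 and m2 and the m3 library labelled WT with the KO libraries, as it did for Thy1. Without the 3 libraries Btg2 differed by 0.33 (SE 0.13, unadjusted p = 0.0225, adjusted p = 0.305 by limma) and Klf13 by 0.18 (adjusted p = 0.596).

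**Figure D3:**
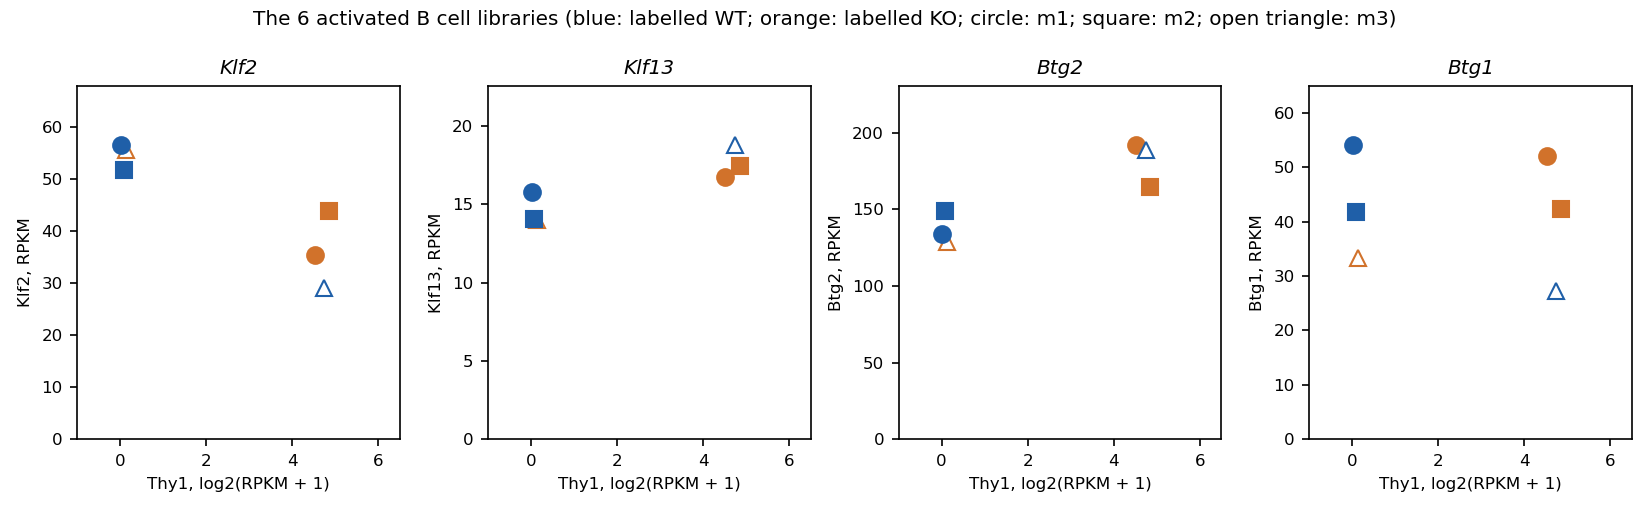
Level of 4 genes (RPKM) against Thy1, as log2(RPKM + 1), in the 6 activated B cell libraries. Color gives the label (blue WT, orange KO) and shape the number (circle m1, square m2, open triangle m3). For Klf2 the m3 library labelled KO, at 55.7 RPKM, lies beside WT m1 and m2 at 56.6 and 51.8, and the m3 library labelled WT, at 29.0, lies below KO m1 and m2 at 35.4 and 43.8.

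Btg1 and Itgb7 differed more by number than by label. Btg1 was at 52.1, 42.4 and 33.3 RPKM in KO m1, m2 and m3 and at 54.2, 41.9 and 27.3 in WT, highest at m1 and lowest at m3 under both labels. Itgb7 was at 10.004, 9.31 and 7.15 RPKM in KO and 11.2, 10.5 and 6.50 in WT, lowest at m3 in both, and within a number it had the same order as Klf2. Klf3 ranged from 2.91 to 4.53 RPKM and Foxp1 from 17.5 to 22.2 over the 6 libraries. Their log2 differences were -0.03 and -0.04.

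With all libraries limma called none of the 7 genes and no other gene (0.0%; 2 genes and 0 of the 7 at an unadjusted p under 0.05), and all 7 overlapped, while 3.13% of tested genes did not. Without the 3 libraries none of the 7 was called (0.71% of genes; 1 of the 7 at an unadjusted p under 0.05). The groups of 2 then parted for Klf2 and Itgb7, lower in KO, and for Klf13 and Btg2, higher in KO, where 25.1% of genes were lower and 23.9% higher without overlap, shares too large for these counts to stand out.

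Plasmablast KO and WT cells differed in none of the 7 genes by limma, with all libraries (0.0% of genes called; 0 of the 7 at an unadjusted p under 0.05) or without the 3 libraries (0.071%; 1 of the 7). Klf2 was at 1.73, 2.75 and 10.6 RPKM in KO m1, m2 and m3 and at 4.07 and 1.00 in WT, so both KO m1 and m2 lay between the WT libraries. The 1.00 RPKM of WT m2 stands for about 8 reads. The log2 difference of Klf2 was 0.62 with KO m3 (95% interval -0.75 to 2.00) and 0.01 without the 3 libraries (95% interval -0.66 to 0.67). Btg1 was at 7.04, 6.47 and 10.3 RPKM in KO and 5.82 and 4.24 in WT, higher in every KO library, as for 8.22% of genes. Its difference was 0.56 (adjusted p = 0.609), and 0.37 without the 3 libraries (SE 0.16, unadjusted p = 0.0352, adjusted p = 0.812 by limma).

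The other 5 genes lay close together in plasmablasts once KO m3 was set aside. Klf3 was at 2.79 to 3.19, Klf13 at 15.9 to 17.9, Foxp1 at 14.8 to 16.8, Btg2 at 175 to 210 and Itgb7 at 3.18 to 3.40 RPKM in these 4 libraries. Their log2 differences without the 3 libraries were between 0.00 and 0.06.

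Plasmablasts and activated cells of the same culture system were compared to ask which of the 7 genes changed with the CD138+ state. Klf2 and Btg1 fell in WT and in KO cells. In WT cells Klf2 went from 56.6, 51.8 and 29.0 RPKM to 4.07 and 1.00, a log2 difference of -3.82 (SE 0.61, 95% interval -5.20 to -2.44, adjusted p = 0.0194). The 1.00 RPKM of plasmablast WT m2 stands for about 8 reads. In KO cells Klf2 went from 35.4, 43.8 and 55.7 RPKM to 1.73, 2.75 and 10.6, a difference of -3.20 (SE 0.55, 95% interval -4.44 to -1.97, adjusted p = 0.0189). Every plasmablast library lay below every activated library for Klf2, as for 36.8% of genes in WT and 22.8% in KO cells. The counts of 2 called members in each genotype stand beside 1.76% of genes called in WT cells, 1.43% lower, and 3.44% in KO cells, 2.67% lower.

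Btg1 fell in WT cells from 54.2, 41.9 and 27.3 RPKM to 5.82 and 4.24, by 2.76 on the log2 scale (SE 0.33, adjusted p = 0.00488). In KO cells it fell from 52.1, 42.4 and 33.3 to 7.04, 6.47 and 10.3 RPKM, by 2.29 (SE 0.29, adjusted p = 0.00713). The groups did not overlap in either genotype, and 36.8% of genes in WT and 22.8% in KO cells were lower without overlap.

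Cell type markers moved between the same groups. Sdc1, the gene of the sorted marker CD138, rose in WT (log2 difference 4.58, adjusted p = 0.0202) and KO cells (3.36, adjusted p = 0.0309), and the B cell genes Cd22 and Ebf1 fell in both, Cd22 by 4.71 in WT and 3.17 in KO cells. Pecam1, an adhesion gene of endothelium that leukocytes also express and the 1 listed gene of 5 stromal and endothelial markers, fell by 1.91 in WT (adjusted p = 0.0178) and 1.74 in KO cells (adjusted p = 0.0126). It was at 11.8 to 22.3 RPKM in activated cells and 2.85 to 4.55 in plasmablasts without KO m3. Hbb-bt, the 1 listed of 6 erythroid markers, fell by 2.34 in KO cells (adjusted p = 0.0487) and was at 3.11 to 12.1 and 0.329 to 2.60 RPKM. Of 19 alternatives, the calls were lost in 5 (WT) and 13 (KO) for Sdc1, 1 and 4 for Cd22, 9 and 11 for Ebf1, 4 and 5 for Pecam1, and 12 for Hbb-bt in KO cells. Their part in the falls of Klf2 and Btg1 was not tested.

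These calls depended on single libraries in part. The Klf2 call in WT cells was lost without activated WT m1 or m2 or plasmablast WT m1 or m2 (adjusted p from 0.0773 to 0.291), and that of Btg1 without plasmablast WT m2 (adjusted p = 0.102). In KO cells the Klf2 call was lost without activated KO m1, m2 or m3 or plasmablast KO m2 (adjusted p from 0.0543 to 0.0834), and that of Btg1 without activated KO m2 (adjusted p = 0.0501). The KO calls were also lost where only the groups compared entered the fit, for Klf2 (adjusted p = 0.139) and Btg1 (adjusted p = 0.0719), and that of Klf2 without both activated m3 libraries (adjusted p = 0.111). With a block for same-numbered libraries in limma, the Klf2 call in WT cells was lost too (-3.66, adjusted p = 0.0584), and that of Btg1 held (adjusted p = 0.0193). Left-out libraries reduce some groups to 1 library, which is then assumed to vary like the others.

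Without both activated m3 libraries and plasmablast KO m3 the spread was smaller, and far more genes were called, 46.3% in WT cells (30.7% lower and 15.5% higher) and 33.6% in KO cells (21.5% lower). Of the 7 genes 4 fell and 1 rose in WT, and 4 fell in KO cells. Klf2 then fell by 4.11 in WT (SE 0.31, adjusted p = 5.37e-07) and by 3.66 in KO (adjusted p = 2.96e-06). Btg1 fell by 3.02 (adjusted p = 3.32e-08) and by 2.63 (adjusted p = 2.31e-07).

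Itgb7 and Foxp1 also fell in this smaller set, in both genotypes. Itgb7 went from 11.2 and 10.5 RPKM in activated WT m1 and m2 to 3.18 and 3.21 in WT plasmablasts, a log2 difference of -1.50 (SE 0.14, adjusted p = 2.40e-06), and fell by 1.29 in KO cells (adjusted p = 1.63e-05). With all libraries its differences of -1.28 in WT (adjusted p = 0.320) and -0.51 in KO cells (adjusted p = 0.507) were not called. Foxp1 fell by 0.34 in WT (SE 0.12, adjusted p = 0.0289) and by 0.37 in KO cells (adjusted p = 0.0260), and with all libraries it was called in neither (-0.34, adjusted p = 0.609, and -0.49, adjusted p = 0.201).

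Btg2 rose in WT cells of the smaller set, from 134 and 149 to 175 and 197 RPKM, by 0.39 (SE 0.13, adjusted p = 0.0236), where all libraries gave an uncalled 0.25 (adjusted p = 0.940). In KO cells it was at 192 and 165 RPKM in activated and 210 and 180 in plasmablast libraries, a difference of 0.12 that did not pass (adjusted p = 0.490). Klf3 and Klf13 were not called in either genotype. Klf3 differed by -0.34 in both, and Klf13 by 0.11 in WT and -0.01 in KO.

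**Figure D4:**
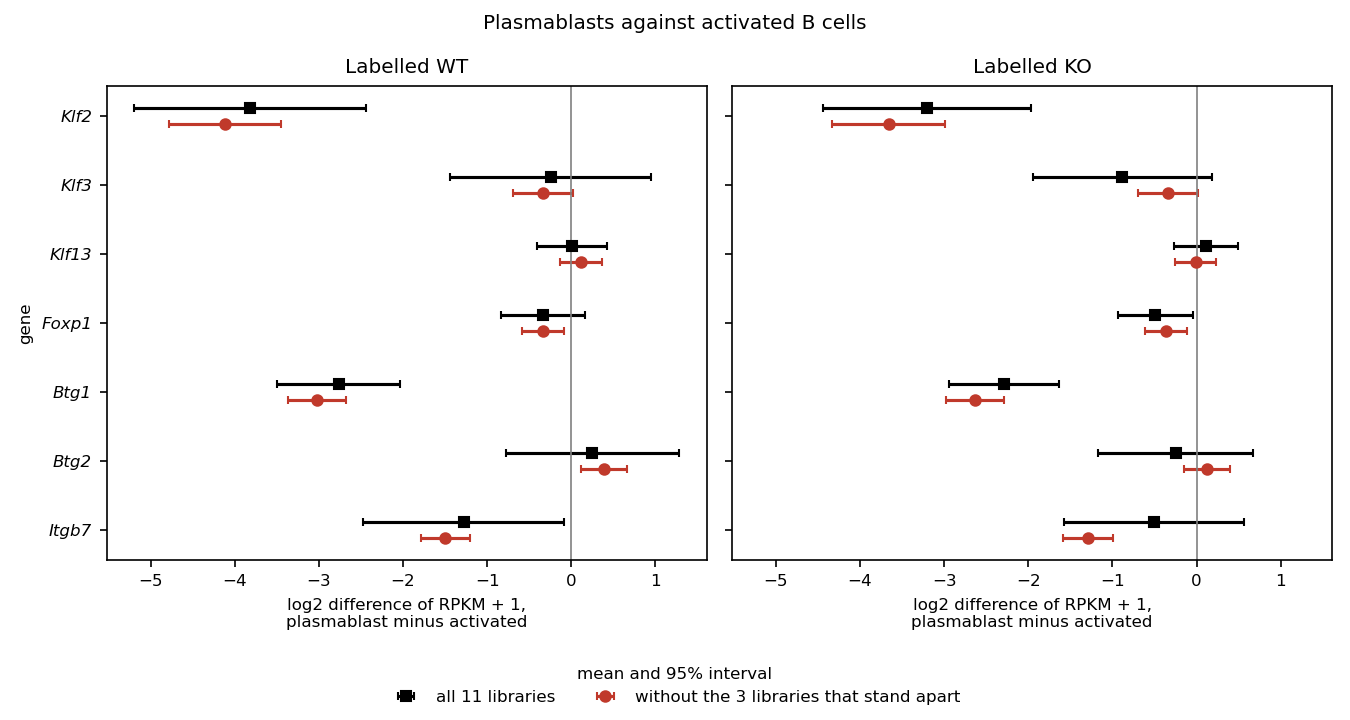
Log2 difference of RPKM + 1, plasmablast minus activated, for each gene in cells labelled WT (left) and KO (right), with 95% intervals, for all 11 cultured libraries and without the 3 libraries that stood apart. Klf2 and Btg1 lie below -2 in every fit, and the intervals narrow without the 3 libraries.

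Whether the KO label changed the step from activated cell to plasmablast was tested as a difference of differences. None of the 7 genes was called, nor was any gene (0.0%; 10 genes and 0 of the 7 at an unadjusted p under 0.05 by limma). Without the 3 libraries none of the 7 was called either (0.0304% of genes; 0 of the 7 at an unadjusted p under 0.05). The KO step minus the WT step was 0.62 for Klf2 (95% interval -1.23 to 2.46) and 0.48 for Btg1 (95% interval -0.50 to 1.46).

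Some partners of the 7 genes also changed between activated cells and plasmablasts. Among homing receptors and integrins, Ccr7, the chemokine receptor that guides cells to T zones, fell in WT (log2 difference -4.91, adjusted p = 0.00405) and KO cells (-3.54, adjusted p = 0.00713). Cxcr5, the receptor of the B cell follicle, fell in KO cells (-1.97, adjusted p = 0.0265) and was not called in WT cells (-1.48, adjusted p = 0.133). The call of Ccr7 was lost in 1 of 19 alternatives in WT and 2 in KO cells, and that of Cxcr5 in 8 in KO cells. S1pr1 was at 22.3 to 43.8 RPKM in activated cells and 17.4 to 25.0 in plasmablasts without KO m3. It did not pass the test in WT (-0.41, adjusted p = 0.704) or KO cells (-0.96, adjusted p = 0.109), and without the 3 libraries it fell in KO cells (-0.94, adjusted p = 0.00106) and was not called in WT cells (-0.19, adjusted p = 0.395).

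Without the 3 libraries 5 of 12 tested homing genes rose and 5 fell in WT cells, among 46.3% of all genes called. In KO cells 4 rose and 5 fell, among 33.6% of all genes called. Itga4, the partner chain of integrin beta 7, rose by 1.64 in WT cells while Itgb7 fell. It was at 3.45 to 7.07 RPKM in the 6 activated libraries and at 15.2 to 20.3 RPKM in plasmablasts without KO m3. Cxcr5 fell by 1.53. Of 10 other Kruppel-like and Sp factors 3 fell (Klf16 by 1.19, Klf11 by 0.94 and Sp4 by 0.75), and none was called with all libraries. All 3 were low. Over all activated WT and plasmablast WT libraries, Klf16 averaged 4.11 and 1.44 RPKM, Klf11 2.85 and 1.21, and Sp4 1.47 and 0.63.

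The counts of list genes in the smaller WT set stand beside 46.3% of all genes called, 30.7% lower and 15.5% higher. Of 16 BTG and TOB relatives and CCR4-NOT subunits 2 rose and 5 fell in that set, so this count does not stand out. Btg3, a further anti-proliferative BTG gene, rose by 0.89, and Prmt1, an arginine methyltransferase that binds BTG1, fell by 0.78. Among FOXP and FOXO relatives Foxo3 rose by 0.60, and Foxp4 and Foxo1 fell by 0.54 and 0.47. Foxo3 and Foxp4 were low. Over all activated WT and plasmablast WT libraries, Foxo3 averaged 0.58 and 1.37 RPKM and Foxp4 2.61 and 1.67. Of 22 genes of quiescence and cell cycle restraint 4 rose and 8 fell, with Bach2 (-1.95), Pik3ip1 (-1.54), Dusp1 (1.31) and Slfn2 (-1.22) the largest. With all libraries, none of the BTG, TOB and CCR4-NOT genes nor of the FOXP and FOXO relatives was called, and of the quiescence list Bach2 was (-1.73, adjusted p = 0.0280, lost in 8 of 19 alternatives).

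In the cultured libraries other than plasmablast KO m3, the genes most like Klf2 over 10 libraries were Hdac1 (r = 0.997), Smarcd2 (0.995), Dek (0.994), Lcp1 (0.994) and Fam49b (0.994). The 10 libraries fall into activated cells and plasmablasts, so r mostly describes that step. Hdac1, a histone deacetylase gene, was at 36.2 ± 3.73 RPKM in activated WT (SD, n = 3) and 14.8 ± 2.90 in plasmablast WT libraries (SD, n = 2). Of the 7 genes Btg1 (0.971) and Itgb7 (0.944) were most like Klf2, then Foxp1 (0.802) and Klf3 (0.597), and Klf13 (-0.246) and Btg2 (-0.701) least. By r among the tested genes, Btg1 ranked 247, Itgb7 679, Foxp1 2599 and Klf3 4072. Many other genes thus had a higher r than Foxp1 and Klf3.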

How the data were processed

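RNA from FACS-sorted mouse spleen B cells was made into SMART-seq v4 and Nextera XT libraries, per the labels' protocols. The authors deposited RPKM per gene, with gene lengths, with cultured and naive cells in separate tables. Reads were processed with STAR and mm10, per the submitters' processing notes. The STAR version, counting tool, annotation and gene filter are not given in the sources used here. All value columns matched a sample (0 did not). Dates in place of 15 symbols per table were restored by gene ID, and 11540 naive and 10568 cultured genes matched RefSeq. Read totals were estimated from the steps of low RPKM values.

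From the deposited RPKM, log2(RPKM + 1) was fitted with limma 3.58.1 in R 4.3.3, with 1 model per table over all its groups, for genes at 1 RPKM or more in at least 2 libraries. Fold changes on this scale understate changes of low genes. Benjamini-Hochberg adjusted p under 0.05 over all tested genes was a call, and p-values are two-sided. The fit was tested on simulated data with 200 changed genes. The alternatives were a pseudocount of 0.1, no filter, quantile normalization, array weights, a replicate block, only the groups compared, and left-out libraries. Leaving out the guide 1 arm A libraries together was chosen after seeing the data. Named genes were all 7 members, up to 4 called genes of each other list by size of difference, and the 5 genes most like Klf2 in each table. The members, lists and tests were chosen with earlier results of these data known. Some results of single genes are not reported here.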

Additional observations from a re-analysis of the deposited data

Results flagged for a closer look

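Among the 14 sets of 6 libraries examined (each of the 7 genes in naive KO and in naive WT cells), 1 held a library far from the others. In naive KO cells Btg1 was at 182 RPKM in guide 2 C, against 205 to 218 RPKM in the other 5 KO libraries. Chance alone gives such a library in about 1 in 20 sets.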

How the results depend on the processing

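The number of the 7 genes called moved with the setting. For naive KO against WT over both guides it was 1, and 0 with the replicate block, where Klf2 kept its difference of -0.62 (adjusted p = 0.0662 by limma), and 0 to 1 without single libraries. With guide 1 it was 0, 1 with array weights, and 0 to 1 without single libraries. For activated KO against WT it was 0, and 5 with array weights. For WT plasmablasts against activated cells it was 2, 6 with array weights, 4 with only the groups compared, 1 with the replicate block (Klf2 -3.66, adjusted p = 0.0584 by limma), 5 without both activated m3 libraries and plasmablast KO m3, and 0 to 4 without single libraries. For KO cells it was 2, 4 with array weights, 0 with only the groups compared, 1 without both activated m3 libraries, 4 without these and plasmablast KO m3, and 0 to 3 without single libraries. Same-numbered libraries gave no sign of deviating together (2 of 21 pairs had r over 0.1, from -0.243 to 0.254). With groups of 2 or 3 libraries, among them those that stood apart, this cannot exclude that the numbers pair the samples. Array weights did not converge in the cultured table. The number of all genes called also moved, beside 9986 cultured genes tested in the main fit. Among the alternatives it reached up to 6751 for activated KO against WT. For plasmablasts against activated cells it reached up to 5509 in WT and 4400 in KO cells. Where so many genes are called, the counts of the 7 do not set them apart.

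Some differences changed sign. For activated KO against WT, Klf2 was -0.024 with quantile normalization, and array weights gave Klf2 -0.24 and Klf13 0.28. Without both activated m3 libraries, with or without plasmablast KO m3, Klf2 was -0.45, Klf3 0.0047, Klf13 0.18, Foxp1 0.035 and Btg1 -0.020. For plasmablast KO against WT, Btg2 was 0.048 with array weights, and without the 3 libraries Klf3 was 0.00042, Foxp1 0.0040 and Btg2 0.064. For KO plasmablasts against activated cells, array weights gave Klf13 -0.030 and Btg2 0.22, and the fit without the 3 libraries -0.013 and 0.12.

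Without single libraries, the naive differences ran from -0.021 to 0.061 for Foxp1 over both guides, from -0.0023 to 0.19 for Klf13 and -0.24 to 0.033 for Btg2 with guide 2, and from -0.057 to 0.37 for Klf2 between guides. Activated KO against WT ran from -0.29 to 0.19 for Klf2, -0.15 to 0.096 for Klf3, -0.10 to 0.094 for Klf13, -0.13 to 0.034 for Foxp1, -0.18 to 0.30 for Btg1, -0.094 to 0.19 for Btg2 and -0.28 to 0.070 for Itgb7. Plasmablast KO against WT ran from -0.046 to 1.29 for Klf2, -1.03 to 0.00042 for Klf3, -0.33 to 0.0040 for Foxp1 and -0.78 to 0.064 for Btg2. Plasmablasts against activated cells ran from -0.084 to 0.11 for Klf13 in WT and -0.57 to 0.28 for Btg2 in KO, and the difference of these steps from -0.053 to 1.29 for Klf2. The cause was not tested. Depth limits plasmablast KO m3, where Klf2, Klf3, Btg1 and Itgb7 rest on about 3 reads or fewer. It also limits Klf2 in plasmablast WT m2, at about 8 reads.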

Other observations

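Btg2 is a textbook p53 target, and other p53 targets were therefore read beside it between activated cells and plasmablasts. Of 11 tested p53 targets none was called with all libraries, in WT (median log2 difference -0.47) or KO cells (median -0.40). Without both activated m3 libraries and plasmablast KO m3, 1 rose and 8 fell in WT cells (median -0.59), and 2 rose and 2 fell in KO cells (median -0.14). Of all tested genes in that set, 46.3% were called in WT (30.7% lower and 15.5% higher) and 33.6% in KO cells (21.5% lower). Trp53inp1, a stress-induced p53 target, rose by 2.02 in WT and 1.64 in KO cells in that set, and Phlda3 fell by 1.59 and 0.59 (limma, all 4 adjusted p under 0.05). In naive KO against WT cells none of 8 was called, with a median of 0.0016.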
